A study of Homo sapiens with 32 samples.

Results

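ATF4 and 9 genes counted among its stress-response targets were followed through both count tables: ASNS, DDIT3, TRIB3, CHAC1, SESN2, PSAT1, PHGDH, DDIT4 and VLDLR. All 10 symbols were found in the gene column, out of 57773 annotated genes. The genes were chosen with results in view, because ASNS and ATF4 had been among the few genes higher than control after 24 h. Their levels and calls with EGF and AII + EGF are therefore given as a description, and refits of the same libraries do not test the choice. P-values of the 10 genes are given after 6 h only, where the choice did not use the contrast.

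The cells were HEK293, an established human embryonic kidney cell line, transiently transfected with AT1R, the angiotensin II receptor type 1. Every group shared the transfection. Cells were left without stimulus (control) or received 1 nmol/l angiotensin II (AII), 10 µg/l epidermal growth factor (EGF) or both (AII + EGF), for 6 h or 24 h. Each group had 4 libraries, except AII + EGF after 24 h, for which 3 libraries were used. Nothing in the labels says that the libraries came from separate cultures, so p-values measure the spread between these libraries, which may be technical. Transient transfection leaves cells that carry different amounts of the receptor gene. AGTR1, which encodes AT1R, was at 950 to 1568 FPM (fragments per 1000000 counted fragments, after TMM normalisation) in the 16 libraries after 6 h and at 369 to 685 FPM in the 15 libraries after 24 h. After 6 h the libraries with AII had more of it than those without, with 1318 to 1568 against 950 to 1236 FPM. The part of this difference in the results was not tested. Of the markers listed for HEK293, NEFL was at 342 to 602, NEFM at 358 to 3593 and VIM at 154 to 322 FPM. KRT8 was lower, at 4.54 to 15.5 FPM, as was KRT18, at 2.10 to 8.43 FPM, and PAX2 stayed at or below 1.16 FPM. CD3E, a T cell gene, had 0 counts in every library, while PTPRC did not exceed 0.319 FPM and ALB did not exceed 1.05 FPM. COL1A1 and MYH11, listed for fibroblasts and smooth muscle, were at 8.45 to 30.3 and 3.12 to 21.3 FPM.

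Depth differed between the time points. The total count was 3881841 to 8540815 per library after 6 h and 6646227 to 33070903 after 24 h, but protein-coding genes took 81.4% to 84.7% of it after 6 h and 20.8% to 63.4% after 24 h. The U1 small nuclear RNA share was 0.0317% to 0.300% at 6 h and 8.90% to 57.2% at 24 h, with 8.90% to 22.9% in control, 11.4% to 57.2% in the AII group, 12.2% to 33.5% after EGF, and with both agents 10.3% to 55.6%. The biological coefficient of variation was 10.6% after 6 h and 29.1% after 24 h. Time and library composition cannot be told apart for a level, so that levels are set against control within a time point, and the effects, not the levels, are compared between 6 h and 24 h. Of the 10 genes, 9 passed the filter on low counts after 6 h, all except CHAC1, and all 10 passed it after 24 h.

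ATF4 is a bZIP transcription factor at the end of the integrated stress response. Kinases that sense unfolded proteins, missing amino acids, double-stranded RNA or lack of haem phosphorylate the initiation factor eIF2α, which lowers general translation and favours that of the ATF4 transcript through its upstream open reading frames. ATF4 protein then binds, mostly as a dimer with C/EBP proteins, to C/EBP-ATF response elements (CARE) of genes for amino acid synthesis and uptake, tRNA charging and feedback control. Growth factor signalling through mTORC1 is also known to raise ATF4. RNA was measured here, not protein, eIF2α phosphorylation or binding.

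The CARE sequence was looked for as TGATGNAA, on both strands, in the RefSeq promoters of the 10 genes (250 bases before to 50 after each annotated start). It was found in the promoters of ASNS and CHAC1, 2 of the 10 genes, and in those of 1217 of 27305 genes in the same table (4.457%). The stretches around it are shown for ASNS and CHAC1, the only ones of the 10 genes that held it. Another annotated ASNS promoter did not hold it. HERPUD1 and MTHFD1L, genes of the wider pathway described further on, held it too, and that of HERPUD1 is shown. Whether the element goes with the size of an effect was not tested. Capitals mark the element, and in CHAC1 and HERPUD1 it lies on the opposite strand. The promoter sequences are those of the RefSeq table for GRCh38.p14, and each matched GRCh37, the build of the counts, at 1 place, to which the coordinates refer.
ASNS, chr7:97501741-97501828, minus strand, first capital 68 bases before the start: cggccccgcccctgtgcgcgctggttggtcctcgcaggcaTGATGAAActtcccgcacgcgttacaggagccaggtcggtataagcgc
CHAC1, chr15:41245420-41245507, plus strand, first capital 209 bases before the start: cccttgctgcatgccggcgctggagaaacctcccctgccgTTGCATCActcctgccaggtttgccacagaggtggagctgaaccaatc
HERPUD1, chr16:56965838-56965925, plus strand, first capital 176 bases before the start: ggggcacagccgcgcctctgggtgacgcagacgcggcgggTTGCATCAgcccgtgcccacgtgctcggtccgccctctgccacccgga
The cyclic AMP response element TGACGTCA, to which ATF proteins also bind, was in none of the 10 promoters (2.249% of all genes), and the hypoxia element TACGTG was in that of DDIT4 (3.977% of all genes). These are matches of letters in a short window and do not show binding.

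After 24 h, ATF4 and ASNS were above control in every library with EGF and with AII + EGF, though ATF4 was not called with EGF. After 6 h neither gene was called with any treatment, and every treated group of ATF4 overlapped control. The ASNS libraries with AII + EGF were above every control library after 6 h too. With a gene called at a Benjamini-Hochberg FDR under 0.05 over all genes, a fold change above 1.5 and a mean above 5 FPM, EGF had 0 of the 9 tested genes called after 6 h, in either direction (over all 18618 genes tested, 1.04% were called higher and 0.688% lower). AII + EGF had 1 called higher after 6 h, TRIB3, and 0 lower (1.39% and 0.564% of all genes). After 24 h, EGF had 1 called higher, ASNS (0.0316% of 22174 genes), and AII + EGF had 2, ASNS and ATF4 (0.0271%), with 0 lower in either comparison (0% of all genes). These counts include the values that chose the genes and are read no further. In bulk RNA, a change in the share of responding cells and a change of RNA per cell cannot be told apart.

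**Figure D1:**
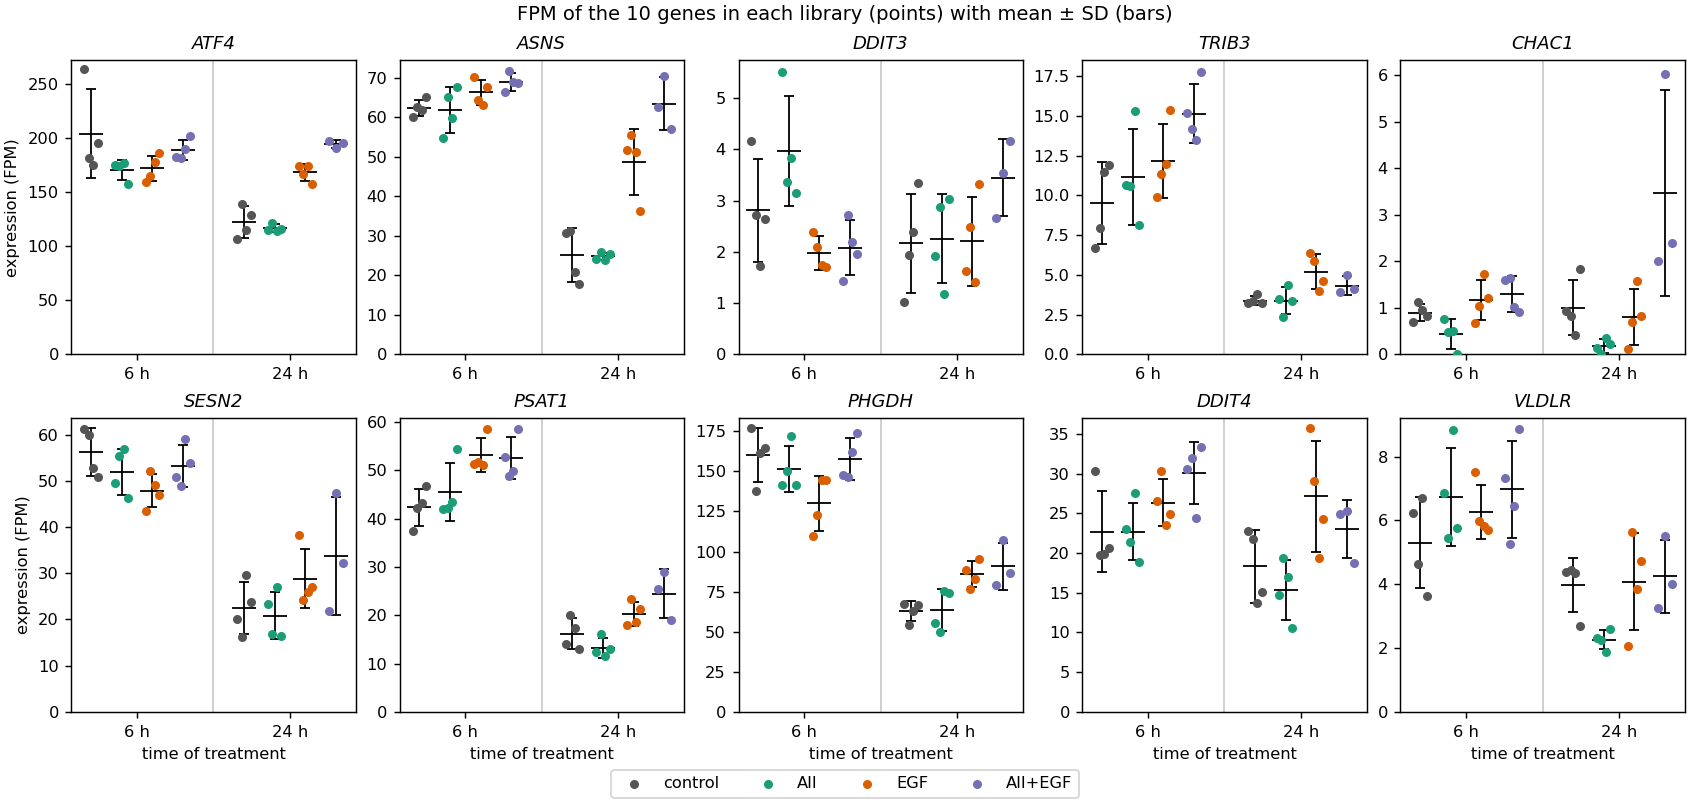
FPM of the 10 genes in each library after 6 h and 24 h of treatment, with points for single libraries and bars for mean ± SD; each panel has its own vertical axis, starting at 0. After 24 h the ATF4 libraries with EGF (157 to 174 FPM) and AII + EGF (191 to 197 FPM) lie above those of control (106 to 139 FPM), whereas after 6 h every treated group of ATF4 overlaps control.

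ATF4 (ENSG00000128272, chr22:39915700-39918688, plus strand) had 106, 139, 115 and 129 FPM in the control libraries after 24 h and 115, 122, 114 and 116 FPM with AII. With EGF it had 174, 167, 174 and 157 FPM, and with AII + EGF 197, 191 and 195 FPM. Every EGF library was above every control library, and every AII + EGF library above every EGF library. The log2 fold change against control after 24 h was 0.46 (SE 0.10) with EGF and 0.67 (SE 0.11) with AII + EGF, and the first of them did not pass the threshold for a call. After 6 h the control libraries had 264, 181, 175 and 196 FPM and those with EGF 159, 165, 177 and 186 FPM. With AII the values were 175, 174, 177 and 157 FPM and with AII + EGF 183, 181, 190 and 202 FPM. Every treated group overlapped control after 6 h, AII lay below AII + EGF in every library, and a single control library, at 264 FPM, lay far above the rest. With EGF the log2 fold change after 6 h was -0.24 (SE 0.10), and -0.09 without that library. With AII + EGF it was -0.11 (SE 0.10), and 0.04 without it. Counts on ATF4 were 599 to 1532 per library after 6 h and 1072 to 3662 after 24 h. Its 4 annotated pseudogenes took reads equal to 1.27% to 3.08% of the ATF4 count after 6 h and 4.42% to 10.8% after 24 h. The split of near-identical reads leaves the level uncertain, to an extent that these shares do not measure.

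ASNS encodes asparagine synthetase, which makes asparagine from aspartate and glutamine, and is the gene with the CARE element at the position shown above. It lies on the minus strand (ENSG00000070669, chr7:97480989-97501854). After 24 h it had 30.6, 31.2, 20.7 and 17.9 FPM in control and 24.2, 25.8, 23.8 and 25.3 FPM with AII. It reached 51.7, 55.4, 51.2 and 36.3 FPM with EGF and 62.5, 70.5 and 57.1 FPM with AII + EGF. The control and AII groups overlapped, the EGF group lay above both, and the AII + EGF group lay above the EGF group. The log2 fold change against control after 24 h was 0.96 (SE 0.16) with EGF and 1.34 (SE 0.17) with AII + EGF. With AII + EGF, ASNS stayed called without any of the 15 libraries in turn. With EGF, leaving out any 1 of 10 of the 15 libraries ended its call, at log2 fold changes of 0.83 to 0.96. All these fits reuse libraries that chose the gene, so nothing is read from them. After 6 h all 16 libraries were between 54.8 and 71.7 FPM. Its log2 fold change was then 0.09 (SE 0.08) with EGF and 0.14 (SE 0.08) with AII + EGF. Pseudogenes of ASNS held 1.94% to 10.0% of its count after 6 h and 1.37% to 9.62% after 24 h.

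**Figure D2:**
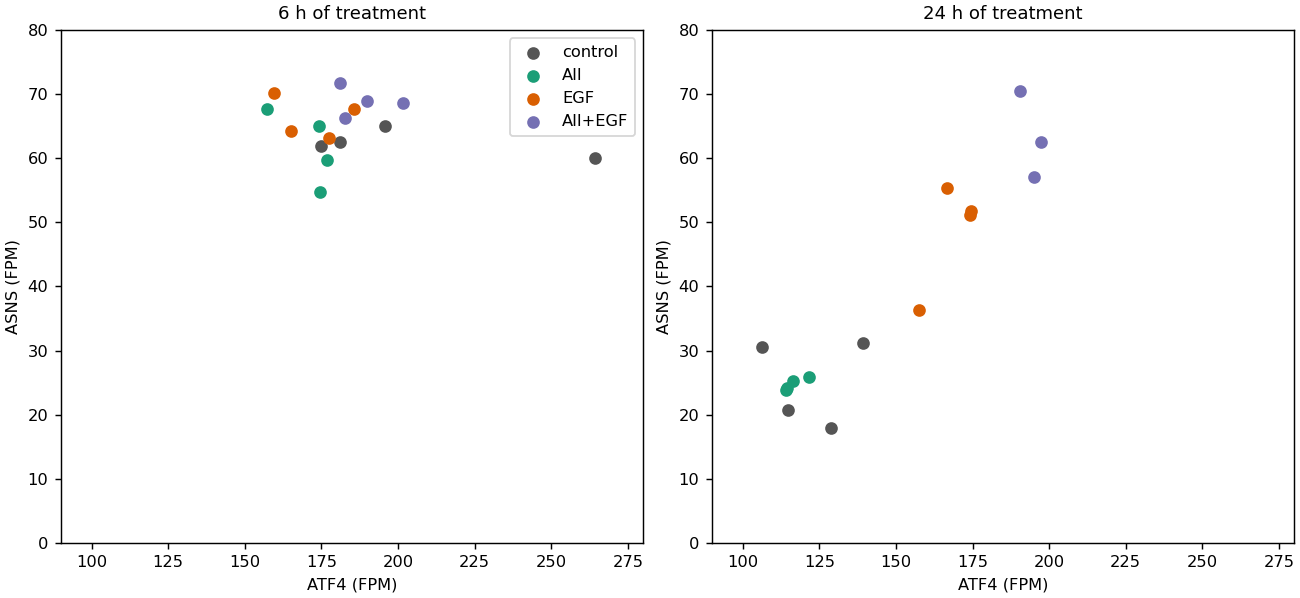
FPM of ASNS against FPM of ATF4, each point a library, after 6 h (left) and 24 h (right) of treatment, with colours for the conditions; the horizontal axis starts above 0. After 24 h the control and AII libraries lie at 106 to 139 FPM of ATF4 and 17.9 to 31.2 FPM of ASNS, apart from the EGF and the AII + EGF libraries, whereas after 6 h ASNS stays between 54.8 and 71.7 FPM whatever the ATF4 level.

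The difference between the time points was taken within one fit of both tables, as the effect against control after 24 h minus that after 6 h. By the FDR of that fit, 2 of the 10 genes, ATF4 and ASNS, were called higher with EGF (0.0821% of 21932 genes were called higher and 0.0912% lower), and the same 2 with AII + EGF (0.0365% and 0.0866% of all genes). The genes were chosen with these differences in view, so that the counts restate the choice and nothing is read from them. Both comparisons share the control libraries. For ASNS the difference of effects was 0.87 (SE 0.18) with EGF and 1.17 (SE 0.19) with AII + EGF on the log2 scale. For ATF4 it was 0.70 (SE 0.14) and 0.76 (SE 0.15), and without the control library at 264 FPM it was 0.55 and 0.61, no longer called in either. Leaving out 1 library at a time, ASNS was called with EGF in 18 of 31 fits and lost in 13, at 0.74 to 0.89, among them the fit without the same control library, whereas with AII + EGF it was called in all 31. ATF4 was called in 26 of 31 such fits with EGF and in 25 with AII + EGF. These fits reuse the libraries that chose the genes and are a description too. AII alone gave a difference of effects of 0.20 (SE 0.14) for ATF4 and 0.02 (SE 0.19) for ASNS, neither called (0% of all genes called, with 842 at an unadjusted p under 0.05). PHGDH had a difference of 0.75 (SE 0.18) with EGF and 0.53 (SE 0.18) with AII + EGF, not called in this fit. The value with EGF was called, at 0.71 to 0.76, with DESeq2, without the filter on low counts, with the library-number runs as a covariate and with protein-coding genes only, and in 3 of the 31 fits without 1 library. Those of the remaining 7 genes lay between -0.62 and 0.58 with EGF and between -0.36 and 1.24 with AII + EGF. Over all genes the median difference was -0.01 with EGF and -0.02 with AII + EGF.

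**Figure D3:**
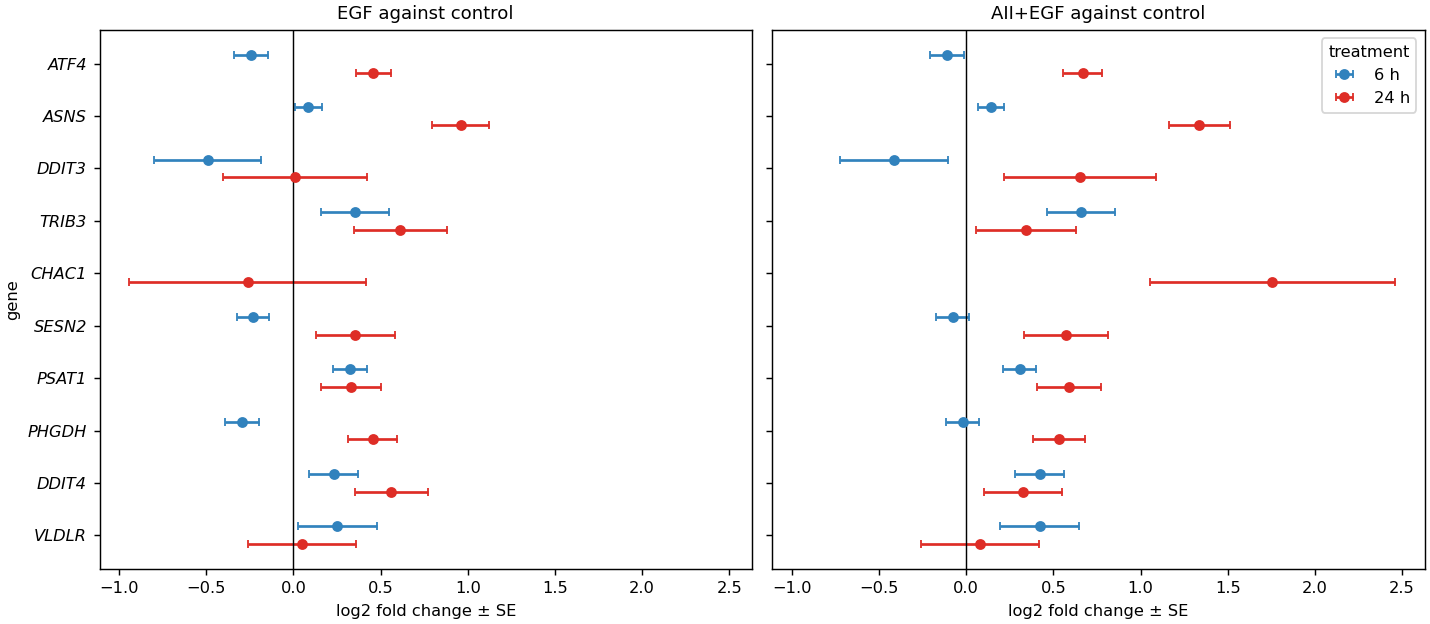
Log2 fold change ± SE against control of the 10 genes with EGF (left) and AII + EGF (right), after 6 h (blue) and 24 h (red). CHAC1 was not tested after 6 h and has no blue point. ASNS has the widest gap between the time points that was called, from 0.09 to 0.96 after EGF, and from 0.14 to 1.34 with both agents.

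PHGDH and PSAT1 encode the first and the second enzyme of serine synthesis from 3-phosphoglycerate. PHGDH (ENSG00000092621, chr1:120191034-120286841, plus strand) had 67.6, 54.2, 62.9 and 66.6 FPM in control after 24 h, 88.8, 76.9, 82.8 and 95.7 FPM with EGF and 78.9, 107 and 86.6 FPM with AII + EGF. Both treated groups lay above control and overlapped each other. Log2 fold changes after 24 h were 0.45 (SE 0.14) with EGF and 0.53 (SE 0.15) with AII + EGF, neither called. After 6 h the order was another one. Control libraries then had 177, 137, 162 and 165 FPM, EGF libraries 110, 123, 144 and 144 FPM and AII + EGF libraries 148, 147, 162 and 174 FPM, which gave log2 fold changes of -0.30 (SE 0.10) and -0.02 (SE 0.10). PSAT1 (ENSG00000135069, chr9:80912041-80945009, plus strand) had log2 fold changes above 0 with both treatments at both times. With EGF they were 0.33 (SE 0.10) after 6 h and 0.33 (SE 0.17) after 24 h, and with AII + EGF 0.31 (SE 0.10) and 0.59 (SE 0.18). After 6 h its control libraries had 37.5, 42.1, 43.1 and 46.6 FPM and its EGF libraries 51.3, 51.7, 51.0 and 58.4 FPM, without overlap. It was the only one of the 9 genes to pass the FDR with EGF after 6 h when no fold change was required (5.97% of all genes did so). After 24 h the control libraries had 14.02, 20.1, 17.4 and 13.05 FPM, the EGF libraries 18.01, 23.5, 18.5 and 21.2 FPM and the AII + EGF libraries 25.4, 28.9 and 19.0 FPM, with overlap in both comparisons.

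TRIB3, a pseudokinase that restrains ATF4 and AKT signalling, was the 1 gene of the group called after 6 h. Located on chr20:343479-378203 (ENSG00000101255, plus strand), it had 6.71, 7.97, 11.5 and 11.9 FPM in control, 9.92, 11.4, 11.99 and 15.4 FPM with EGF and 15.2, 14.2, 13.5 and 17.7 FPM with AII + EGF. The AII + EGF libraries lay above all control libraries, and the EGF libraries overlapped both. The log2 fold change after 6 h was 0.35 (SE 0.20) with EGF and 0.66 (SE 0.20) with AII + EGF, and leaving out any one of 10 of the 16 libraries ended the call. After 24 h TRIB3 had 3.21 to 3.77 FPM in control, 3.97 to 6.35 FPM after EGF, and 3.90 to 4.98 FPM with both agents, on 38 to 77 counts per library in these groups. Every treated library was then above every control library, by 0.61 (SE 0.27) and 0.34 (SE 0.29) on the log2 scale.

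DDIT3 encodes CHOP, a bZIP factor that ATF4 induces under prolonged stress and that favours cell death. Its level was low, with 8 to 29 counts per library after 6 h and 12 to 78 after 24 h. The log2 fold change was -0.49 (SE 0.31) with EGF and -0.41 (SE 0.31) with AII + EGF after 6 h, and 0.01 (SE 0.42) and 0.65 (SE 0.44) after 24 h. Groups overlapped in every comparison with control. DDIT3 (ENSG00000175197, chr12:57910371-57915520, minus strand) overlaps the genes MARS1 and MBD6 on the other strand, and because the strand setting of the counting is not given in the sources used here, its reads are uncertain.

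SESN2, a stress-induced inhibitor of mTORC1, and DDIT4, which encodes REDD1, another inhibitor of mTORC1, had treated groups that overlapped control at both times. SESN2 (ENSG00000130766, chr1:28586029-28609002, plus strand) had log2 fold changes of -0.23 (SE 0.09) with EGF and -0.08 (SE 0.09) with AII + EGF after 6 h. After 24 h it had 16.3 to 29.5 FPM in control, 24.2 to 38.3 FPM after EGF, and 21.8 to 47.3 FPM with both agents, with log2 fold changes of 0.36 (SE 0.22) and 0.57 (SE 0.24). DDIT4 (ENSG00000168209, chr10:74033678-74035794, plus strand) had log2 fold changes of 0.23 (SE 0.14) and 0.42 (SE 0.14) after 6 h, and 0.56 (SE 0.21) and 0.33 (SE 0.23) after 24 h. Its 6 h values in control were 30.3, 19.8, 19.9 and 20.7 FPM, and the highest of them came from the library that was also high for ATF4.

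CHAC1, which breaks down glutathione, was near the limit of detection. After 6 h it had 0 to 11 counts per library and was not tested. After 24 h the counts were 11, 15, 8 and 32 in control, 2, 0, 5 and 2 with AII, 1, 9, 29 and 10 with EGF and 34, 46 and 45 with AII + EGF. In FPM, the AII + EGF libraries (2.01, 6.03 and 2.40) were above the control libraries (0.929, 0.833, 0.425 and 1.84), and the EGF libraries (0.115 to 1.58) overlapped them. The log2 fold change was -0.26 (SE 0.68) with EGF and 1.76 (SE 0.70) with AII + EGF, neither called. The gene lies on chr15:41245160-41248710 (ENSG00000128965, plus strand).

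VLDLR, a lipoprotein receptor that ATF4 is known to induce, had log2 fold changes of 0.25 (SE 0.23) with EGF and 0.42 (SE 0.23) with AII + EGF after 6 h, and 0.05 (SE 0.31) and 0.08 (SE 0.34) after 24 h. All of its groups overlapped in these comparisons. It rests on 18 to 82 counts per library and overlaps the antisense gene VLDLR-AS1 (VLDLR is ENSG00000147852, chr9:2621182-2660056, plus strand), so that reads of these 2 genes cannot be told apart without the strand setting.

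Over the group, the median log2 fold change with EGF was 0.09 after 6 h (9 genes, 5 above 0) and 0.41 after 24 h (10 genes, 9 above 0). With AII + EGF it was 0.14 after 6 h (5 of 9 above 0) and 0.58 after 24 h (10 of 10 above 0). The median over all genes tested was between -0.01 and 0.00 in these comparisons. Libraries of control and treatment did not overlap for 1 gene with EGF after 6 h, PSAT1 (6.61% of all genes had every treated library higher), and for 3 with AII + EGF, ASNS, PSAT1 and TRIB3 (6.77%). After 24 h this held for 4 genes with EGF, ATF4, ASNS, PHGDH and TRIB3 (2.35%), and for these and CHAC1, 5 genes, with AII + EGF (3.99%). The genes were chosen partly on these contrasts, and nothing is read from these counts.

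AII alone was also set against control. No gene was called in this contrast, so that it did not itself serve the choice. The control libraries after 24 h did, and values of the 10 genes at that time are given without p. Called genes among the 10 were 0 after 6 h and 0 after 24 h (0% of all genes, with 845 and 552 at an unadjusted p under 0.05). The median log2 fold change over the group was 0.03 after 6 h and -0.09 after 24 h. ATF4 differed by -0.25 (SE 0.10, adjusted p = 0.987, edgeR) after 6 h and by -0.07 (SE 0.10) after 24 h. The first value was -0.10 without the control library at 264 FPM. ASNS differed by -0.02 (SE 0.08) and -0.01 (SE 0.17). VLDLR and CHAC1 had every AII library below every control library after 24 h, 2 of 10 genes (0.97% of all genes). For VLDLR these were 2.33, 2.26, 1.88 and 2.60 FPM with AII against 4.39, 4.44, 4.35 and 2.70 FPM in control, a log2 difference of -0.81 (SE 0.32). Neither gene was called after adjustment over all genes. The 2, 0, 5 and 2 counts of CHAC1 with AII are at the floor of 3 counts or close to it, and no fold change is given.

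AII + EGF was also set against EGF alone, which asks whether AII adds to EGF. The libraries after 24 h took part in the choice of the genes, so that the values of the 10 genes at that time are given without p. No gene was called in the direct contrast (0% of all genes at either time, with 1352 and 747 at an unadjusted p under 0.05). Among the 10 genes 0 were called. After 24 h, every AII + EGF library was above every EGF library for ATF4, ASNS and CHAC1, 3 of 10 genes (2.81% of all genes). The log2 difference was 0.21 (SE 0.11) for ATF4, 0.38 (SE 0.17) for ASNS and 2.02 (SE 0.71) for CHAC1. After 6 h this separation was seen for PHGDH, 1 gene (2.85% of all genes), with a log2 difference of 0.28 (SE 0.10, adjusted p = 0.677, edgeR) and p = 0.0286 in the exact permutation test. That p is the smallest that 4 against 4 libraries allow, and 40 such tests were planned. ATF4 differed by 0.14 (SE 0.10) and ASNS by 0.06 (SE 0.08) after 6 h. None of these differences passed the test over all genes.

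The interaction of AII and EGF, the AII + EGF effect less the sum of the single effects on the log2 scale, called 0 of the 10 genes at either time (0% of all genes, with 1491 and 525 at an unadjusted p under 0.05). For ATF4 it was 0.39 (SE 0.14, adjusted p = 0.592, edgeR) after 6 h, lower without the high control library (0.24), and 0.28 (SE 0.15) after 24 h. For ASNS it was 0.07 (SE 0.11) and 0.39 (SE 0.24). PSAT1 had 0.54 (SE 0.25) after 24 h. The fitted interaction of CHAC1 after 24 h passed the FDR without the filter on low counts and not with it, and it rests on the AII libraries at 0 to 5 counts. Libraries after 24 h served the choice of the genes, so that no p is given and nothing is read from it.

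The wider ATF4 pathway was described through 78 further genes in 6 lists, of which 71 were tested after 6 h and 74 after 24 h. With EGF, 2 of 71 were called after 6 h, SLC7A5 and STC2 (1.04% of all genes were called higher), and 1 of 74 after 24 h, HERPUD1 (0.0316%). With AII + EGF, 4 of 71 were called after 6 h, SLC7A5, STC2, CEBPB and MTHFD1L (1.39%), and 2 of 74 after 24 h, SLC7A11 and YARS (0.0271%). All of these were higher than control, none was lower, and AII alone and AII + EGF against EGF called 0 of them. Several of these genes were known from earlier results of the same libraries when the lists were made. These counts, and the adjusted p-values of such genes given below, are therefore a description, and nothing is read from them about the pathway. The median log2 fold change over the tested ones was 0.10 with EGF and 0.16 with AII + EGF after 6 h, and 0.24 and 0.26 after 24 h.

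Called amino acid transporters were SLC7A11 and SLC7A5. SLC7A11, the cystine-glutamate exchanger, had 8.80 ± 2.36 FPM in control after 24 h (SD, n = 4), 17.6 ± 1.8 with EGF (SD, n = 4) and 24.5 ± 5.7 with AII + EGF (SD, n = 3). It rose by 1.47 on the log2 scale with AII + EGF (SE 0.21, adjusted p = 0.00468, edgeR), and with EGF the value was 1.00 (SE 0.20, adjusted p = 0.0752, edgeR). SLC7A5, the light chain of the leucine transporter LAT1, was called after 6 h, when it rose by 0.72 with EGF (SE 0.13, adjusted p = 0.00166, edgeR) and by 0.91 with AII + EGF (SE 0.13, adjusted p = 0.000118, edgeR). After 24 h its values were 0.64 and 0.77, above the FDR threshold (adjusted p = 0.103 and 0.0536, edgeR). All 9 tested transporters had a fitted log2 fold change above 0 after 24 h with both treatments, with medians of 0.26 and 0.34. The lowest values were 0.0903 with EGF and 0.00864 with AII + EGF.

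Among the genes of tRNA charging, the fitted log2 fold change after 24 h was above 0 for 13 of 13 with both treatments. The median was 0.31 with EGF (lowest 0.047) and 0.34 with AII + EGF (lowest 0.17). After 6 h this held for 9 of 13 with each treatment (medians 0.10 and 0.15). The share of all genes above 0 was not counted. Their medians after 24 h were -0.003 with EGF and -0.006 with AII + EGF. YARS, the tyrosyl-tRNA synthetase, was the 1 called, and it rose by 0.74 with AII + EGF after 24 h (SE 0.11, adjusted p = 0.0102, edgeR). In one-carbon and amino acid synthesis, MTHFD1L, a mitochondrial enzyme of formate production, rose by 0.62 with AII + EGF after 6 h (SE 0.08, adjusted p = 1.76e-05, edgeR), and none of 14 genes was called after 24 h (medians 0.22 and 0.38). Of the bZIP partners, CEBPB rose by 0.90 with AII + EGF after 6 h (SE 0.18, adjusted p = 0.00227, edgeR), and none of 9 was called after 24 h. The kinases, phosphatase subunits and exchange factor subunits that control eIF2α gave 0 calls among 13 genes in either comparison at either time, with medians of 0.05 to 0.12. Over all genes, 1.04% and 1.39% were called higher with EGF and AII + EGF after 6 h, and 0.0316% and 0.0271% after 24 h.

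HERPUD1, a gene of ER-associated degradation, was the 1 call among the other targets after 24 h. It had 10.1 ± 2.6 FPM in control (SD, n = 4), 20.7 ± 3.0 with EGF (SD, n = 4) and 20.1 ± 2.4 with AII + EGF (SD, n = 3). With EGF it rose by 1.03 (SE 0.18, adjusted p = 0.0374, edgeR), and this effect was larger than after 6 h by 1.16 (SE 0.21, adjusted p = 0.00856, edgeR). STC2, a secreted glycoprotein induced by ATF4, rose after 6 h by 0.74 with EGF (SE 0.11, adjusted p = 0.000227, edgeR) and by 0.91 with AII + EGF (SE 0.11, adjusted p = 1.44e-05, edgeR). Its values after 24 h were 0.78 and 0.87 (adjusted p = 0.184 and 0.227, edgeR). Of the 7 called pathway genes, 5 had a promoter in the RefSeq table, and the CARE letters were in those of HERPUD1 and MTHFD1L.

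**Figure D4:**
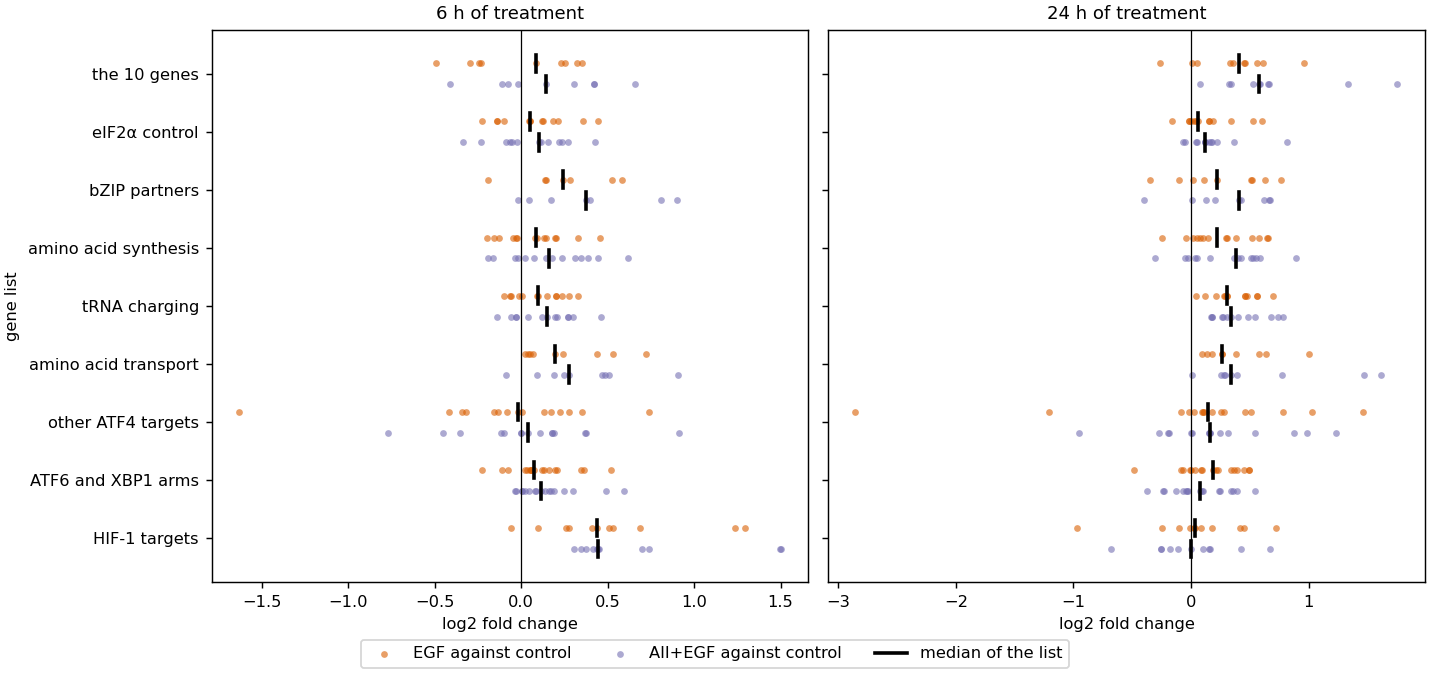
Log2 fold changes with EGF (orange) and AII + EGF (violet) of every tested gene, in rows for the 10 genes, 6 lists of the wider ATF4 pathway, the ATF6 and XBP1 arms and the HIF-1 targets, after 6 h (left) and 24 h (right); black bars are medians, and the horizontal scales differ. The median of the 10 genes goes from 0.09 to 0.41 after EGF and from 0.14 to 0.58 with both agents, and that of the HIF-1 targets from 0.44 to 0.03 and from 0.44 to 0.00. All lists were made with earlier results known, so nothing is read from these medians.

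Other stress pathways were listed beside these, also with earlier results of these libraries known. Their counts and adjusted p-values are therefore a description, and nothing is read from them. The ATF6 and XBP1 arms of the unfolded protein response, with chaperones such as HSPA5 and HSP90B1, had 1 of 17 genes called, MANF, which rose by 0.59 with AII + EGF after 6 h (SE 0.11, adjusted p = 0.000993, edgeR). With AII + EGF after 6 h, 1.39% of all genes were called higher. After 24 h 0 of the 17 were called with either treatment (0.0316% and 0.0271% of all genes), with medians of 0.18 and 0.08. Targets of HIF-1, the hypoxia factor, had SLC2A1, NDRG1 and EGLN3 called with EGF and with AII + EGF after 6 h, 3 of 11 genes. Over all genes, 1.04% and 1.39% were called higher at that time. After 24 h 0 of the 11 were called, when 0.0316% and 0.0271% of all genes were called higher. For SLC2A1 the AII + EGF effect was smaller after 24 h than after 6 h, by a difference of -1.10 (SE 0.24, adjusted p = 0.0472, edgeR). Of the HEK293 markers, NEFM was called higher with EGF at both times and with AII + EGF after 6 h, and KRT18 with AII + EGF after 6 h; their part in the results was not tested.

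Likeness to ATF4 was measured as Pearson's r of log2 FPM centred at each time point, over 31 libraries and 11226 genes with a mean above 5 FPM at both times. The most alike were YARS (0.82), PCK2 (0.82), SARS (0.80), GPX4 (0.79) and HERPUD1 (0.79). PCK2 is the mitochondrial phosphoenolpyruvate carboxykinase, SARS the seryl-tRNA synthetase and GPX4 a lipid peroxide reductase. Of the group, ASNS had r = 0.77 and was the ninth, followed by PHGDH (0.68), PSAT1 (0.57), DDIT4 (0.56) and SESN2 (0.53); the other 4 genes were at or under 5 FPM on average at one time at least and had no rank. These pooled values hide a difference between the times. Within the 16 libraries after 6 h, r with ATF4 was -0.18 for ASNS and -0.37 for PSAT1, against 0.90 and 0.81 within the 15 libraries after 24 h, and HERPUD1 had 0.22 and 0.90, whereas PHGDH had 0.67 and 0.69. The libraries share treatment groups, and r therefore holds the differences between groups described above as well as those within them. ATF4 and ASNS were chosen because both were higher than control after 24 h. The rank of ASNS and its r at that time follow in part from this choice, and nothing is read from them.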

How the data were processed

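RNA of transiently transfected HEK293 cells was sequenced in 32 labelled libraries, of which 16 after 6 h and 15 after 24 h had a column of values; the remaining AII + EGF library after 24 h was not analysed here. The authors deposited raw counts of read fragments per gene, without normalisation. According to the methods, adaptors were removed (cutadapt 1.8.1), reads were mapped to hg19 with TopHat2 2.0.14 and counted with featureCounts 1.4.6, whereas the design text deposited with the series names HISAT2. The strand setting was not given in the sources used here. Of the 24 h columns, 8 carry the word filtered in their name, which no source used here explains. All columns were mapped to a sample (0 were left out).

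From the counts, TMM factors, FPM and quasi-likelihood F tests over all genes were computed with edgeR 4.0.16 (R 4.3.3), separately for each time point with all 4 conditions in the fit, after filterByExpr. SE was derived from the fold change and the F value. A gene was called at an FDR under 0.05 (Benjamini-Hochberg), a fold change above 1.5 and a mean above 5 FPM, in control for lower and in treated libraries for higher genes. The difference between 24 h and 6 h was taken from one fit of 8 groups and the interaction within a time point, both called by FDR alone. FPM of single genes entered an exact permutation test, two-sided. Its planned p-values after 24 h are left out, since libraries of that time served the choice of genes. A count of 3 was taken as the floor. The procedure was tested on simulated counts. Sequences came from RefSeq promoters and GRCh37, gene positions from GENCODE lifted to GRCh37.

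The 10 genes and all lists were chosen with earlier results of these data known. Named genes were the 10 genes, the called genes of each list (at most 5 by adjusted p), the 5 most similar to ATF4, and AGTR1. The alternatives were DESeq2 1.42.0, its size factors, no filter on low counts, FDR alone, protein-coding genes only, and each library left out in turn. Runs of library numbers were also used, as a covariate or separately. The runs were the first and the second block of library numbers at each time, each holding all 4 conditions. They were set here from that order, and the labels name no batch. The depth of 3881841 to 33070903 counts per library limits genes with few counts, such as CHAC1.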

Additional observations from a re-analysis of the deposited data

Results flagged for a closer look

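Effects that differed between 24 h and 6 h were those of ASNS, by 0.87 with EGF and 1.17 with AII + EGF on the log2 scale, and of ATF4, by 0.70 and 0.76; these values took part in the choice of the genes and are given as a description. For the 10 genes, 70 groups of 4 libraries were searched for a library far from the other 3, where chance gives about 1 in 20 (3.5 groups), and 6 were found. For each, the distance from its closest neighbour is given as a share of the whole range of the group. Replicate numbers follow the order of the library numbers within a group and are not from the labels. After 6 h, AII replicate 4 was the lowest for ATF4 (0.865, 157 FPM) and the highest for PSAT1 (0.892, 54.3 FPM). Also after 6 h, EGF replicate 4 was the highest for PSAT1 (0.903, 58.4 FPM), EGF replicate 1 the highest for VLDLR (0.848, 7.53 FPM on 44 counts) and control replicate 1 the highest for DDIT4 (0.915, 30.3 FPM). The same control library had the highest ATF4 value of all 31 libraries, though within its group the gap stayed under the limit. After 24 h, control replicate 4 was the lowest for VLDLR (0.949, 2.70 FPM on 47 counts), which narrows the gap between control and AII for this gene. The part of these libraries in the results was tested by leaving each out.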

How the results depend on the processing

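No paired analysis was possible because replicate numbers are not part of the labels, and those used here only follow the order of library numbers. The calls of ASNS, ATF4 and TRIB3 against control, and those of ASNS and ATF4 between the times, were also made with DESeq2 and with its size factors. They were made too without the filter on low counts, with protein-coding genes only and with the library-number runs as a covariate. All settings use the same libraries, among them those that chose the genes, so nothing is read from these calls. With FDR alone, 1 of the 10 genes was called with EGF after 6 h (PSAT1) and 11 and 14 of the other pathway genes with EGF and AII + EGF after 6 h. Over all 18618 genes tested, 1112 and 1136 passed that rule. Without the filter on low counts, 1 of the 10 genes passed the FDR for the interaction after 24 h (CHAC1, on AII libraries at 0 to 5 counts). The other pathway genes called after 24 h depended most on the setting, against 1 with EGF and 2 with AII + EGF in edgeR. They were 5 and 7 with DESeq2, 4 and 9 without the filter on low counts, 5 and 8 with the runs as a covariate, and 4 and 5 with protein-coding genes only. For the difference between times, against 1 with EGF and 0 with AII + EGF, they were 4 and 3 with DESeq2, 2 and 1 with DESeq2 size factors, 2 and 2 with the runs as a covariate and 2 and 2 with protein-coding genes only. For these other settings, and for the fits without 1 library below, no share over all genes is given, and nothing is read from the counts. The causes were not tested.

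Leaving out a library gave 0 to 1 called of the 10 genes with AII + EGF after 6 h, 0 to 1 after 24 h of EGF, 1 to 2 after 24 h of both agents, and for the difference between times 0 to 3 (EGF) and 1 to 2 (AII + EGF). For the other pathway genes it gave 0 to 1 (EGF) and 0 to 4 (AII + EGF) after 24 h, and 1 to 2 (EGF) and 0 to 1 (AII + EGF) for the difference. After 24 h ATF4 lost its call with AII + EGF (log2 0.61 to 0.69 in the fits that lost it) without control replicate 1, 3 or 4 or any of the 3 AII + EGF libraries. ASNS lost its call with EGF after 24 h without EGF replicate 1, 2 or 3, control replicate 3 or 4, AII replicate 1 or 4, or any AII + EGF library. TRIB3 lost its call with AII + EGF after 6 h without control replicate 1 or 2, AII replicate 1 or 2, EGF replicate 2 or 3, or any AII + EGF library. HERPUD1 stayed called with EGF after 24 h in 3 of 15 such fits, YARS in 11 and SLC7A11 in 14 with AII + EGF. Within the 2 runs of library numbers, the effect of AII + EGF on ASNS after 24 h was 1.02 and 1.71, that on ATF4 0.70 and 0.66 (the first run holds 1 AII + EGF library after 24 h, so that its value rests on that library), and the effect on TRIB3 after 6 h 0.97 and 0.39. No called value changed sign in any setting. Low counts limit CHAC1, DDIT3, VLDLR and TRIB3, and the wider spread after 24 h limits all genes at that time.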
